A study of Mus musculus with 9 samples.

Results

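Mitochondrial ribosomal protein genes were taken as all genes on the array whose symbol starts with Mrpl or Mrps followed by a number, which gave 76 of the 18193 genes measured, 47 named for the large subunit (Mrpl) and 29 for the small subunit (Mrps). Where a gene had several probe sets, the one brightest on average across the 9 arrays was used. Mrpl30 and Mrpl53 were measured only on probe sets that name a second gene as well, so they are not among the 76. The samples were right ventricle myocardium of male mice of the strain labelled C57BL6J, aged 6 to 8 weeks. In the banding group (5 arrays) the pulmonary artery was narrowed, so that the right ventricle pumped against a raised load, and the sham group (4 arrays) had no band. No transgene or drug is named for either group. The design text speaks of 5 banded and sham mice, while 4 sham arrays were analysed here. Neither the time since surgery nor an array batch is stated in the sources used here, and the labels do not say that each replicate is a separate animal, so the p-values measure the spread between these samples. Expression is on a log2 scale per probe set, on which a difference of 1 is a 2-fold change.

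The mitochondrial ribosome, or mitoribosome, translates the few proteins that mitochondrial DNA encodes, which are subunits of the respiratory chain and ATP synthase. Its RNAs are transcribed in the mitochondrion, whereas all of its proteins are encoded in the nucleus and imported. The small subunit decodes the mRNA, and the large subunit forms peptide bonds and passes the new chain to the inner membrane. In the heart, which depends on oxidative phosphorylation, inherited defects of several of these proteins, such as Mrpl3, Mrpl44 and Mrps22, are known to cause cardiomyopathy.

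The promoters of these genes are known for binding sites of the transcription factors NRF1, GABPA (also called NRF2) and YY1. Windows of 300 bases, 250 before and 50 after the annotated start, were taken from RefSeq on GRCm38.p6 for 67 of the 76 genes (73 windows), and both strands were searched for 4 motifs. The 9 genes with no window used here were Mrpl13, Mrpl15, Mrpl19, Mrpl38, Mrpl4, Mrpl54, Mrps28, Mrps34 and Mrps35. The stretches below show 1 promoter for each of the 3 factors, together with Mrpl33, whose transcript level did not pass the test. Each lies within the window of its gene, around the motif, and capitals mark every copy of the named motif, read 5′ to 3′ on the gene's strand. Mrpl32 (large subunit, chr13:14613038-14613174, minus strand) carries the NRF1 core, Mrps11 (small subunit, chr7:78782973-78783091, plus strand) the YY1 core, Mrps22 (chr9:98601680-98601740, minus strand) and Mrpl33 (chr5:31613898-31613955, plus strand) the GABPA core.
Mrpl32: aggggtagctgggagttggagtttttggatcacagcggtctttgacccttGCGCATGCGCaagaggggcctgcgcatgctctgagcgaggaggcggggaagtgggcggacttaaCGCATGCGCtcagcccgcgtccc
Mrps11: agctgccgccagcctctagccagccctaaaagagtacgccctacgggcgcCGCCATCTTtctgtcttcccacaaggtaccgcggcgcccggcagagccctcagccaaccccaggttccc
Mrps22: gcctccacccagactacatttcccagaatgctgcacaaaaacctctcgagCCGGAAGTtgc
Mrpl33: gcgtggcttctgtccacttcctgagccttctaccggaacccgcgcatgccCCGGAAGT

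The NRF1 core GCGCATGCG (reverse complement CGCATGCGC) was found in 7 of the 73 windows, or 9.59%, against 1.75% of all 32851 windows and 3.56% of windows of genes above the dim level. The core is nearly its own reverse complement, so that the first capital run of Mrpl32 holds it on both strands, as did 3 windows in all. The GABPA core CCGGAAGT (reverse complement ACTTCCGG) was in 12 windows (16.4% against 3.89% and 7.72%), and the YY1 core AAGATGGCG (reverse complement CGCCATCTT) in 8 (11% against 1.4% and 2.99%). The half-site AAGGTCA (reverse complement TGACCTT), bound by estrogen-related receptors, was in 4 windows, or 5.48% against 4.72% and 3.1%. No copies of different motifs overlapped. At least 1 of the NRF1, GABPA and YY1 cores was in the windows of 26 genes, whose median difference between banding and sham was -0.76, and in none of the windows of the other 41 matched genes, whose median difference was -0.92. A match describes these letters only, and these shares were not tested.

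Transcripts of 74 of the 76 genes were lower in the banded right ventricle than in sham, and 0 were higher. The test was limma over all genes with Benjamini-Hochberg adjustment and a threshold of 0.05. All 45 large-subunit genes that fell and all 29 small-subunit genes lay below every sham array on every banding array. The median difference was -0.84 over the 76 genes (quartiles -1.06 and -0.69), while the median over all 18193 genes was 0.00. By the same test 20.0% of all genes were lower and 18.4% higher, and 32.2% of the 10748 genes whose average exceeded the dim level of 4.198 were lower. All 76 genes were above that level on every array, so the last share is the nearest background. Groups were separated downward, every banding array below every sham array, in 19.3% of all genes. The same held for 3302 of the 10748 genes above the dim level. No member was higher at an unadjusted p of 0.05 either (0 genes), and limma with a trended, robust variance gave 74 lower and 0 higher.

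Falls of 0.5 to 1 log2 unit were the most common. The difference lay between 0.5 and 1 log2 unit in 48 genes (28 large, 20 small), and 23 genes (15 large, 8 small) fell at least 2-fold. Such a fall was seen in 5.82% of all genes and in 969 of the 10748 genes above the dim level. Another 3 genes, Mrpl43 (-0.46), Mrpl52 (-0.30) and Mrps23 (-0.30), fell by less than 0.5, and Mrpl54 and Mrpl33 did not pass. The size of the difference had little relation to the level of a transcript in sham, which ran from 8.15 for Mrps5 to 14.67 for Mrpl42. Across the 76 genes, which share the same 9 arrays and are not replicates, the sham level and the difference correlated at 0.06 (Pearson) and 0.10 (Spearman).

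**Figure D1:**
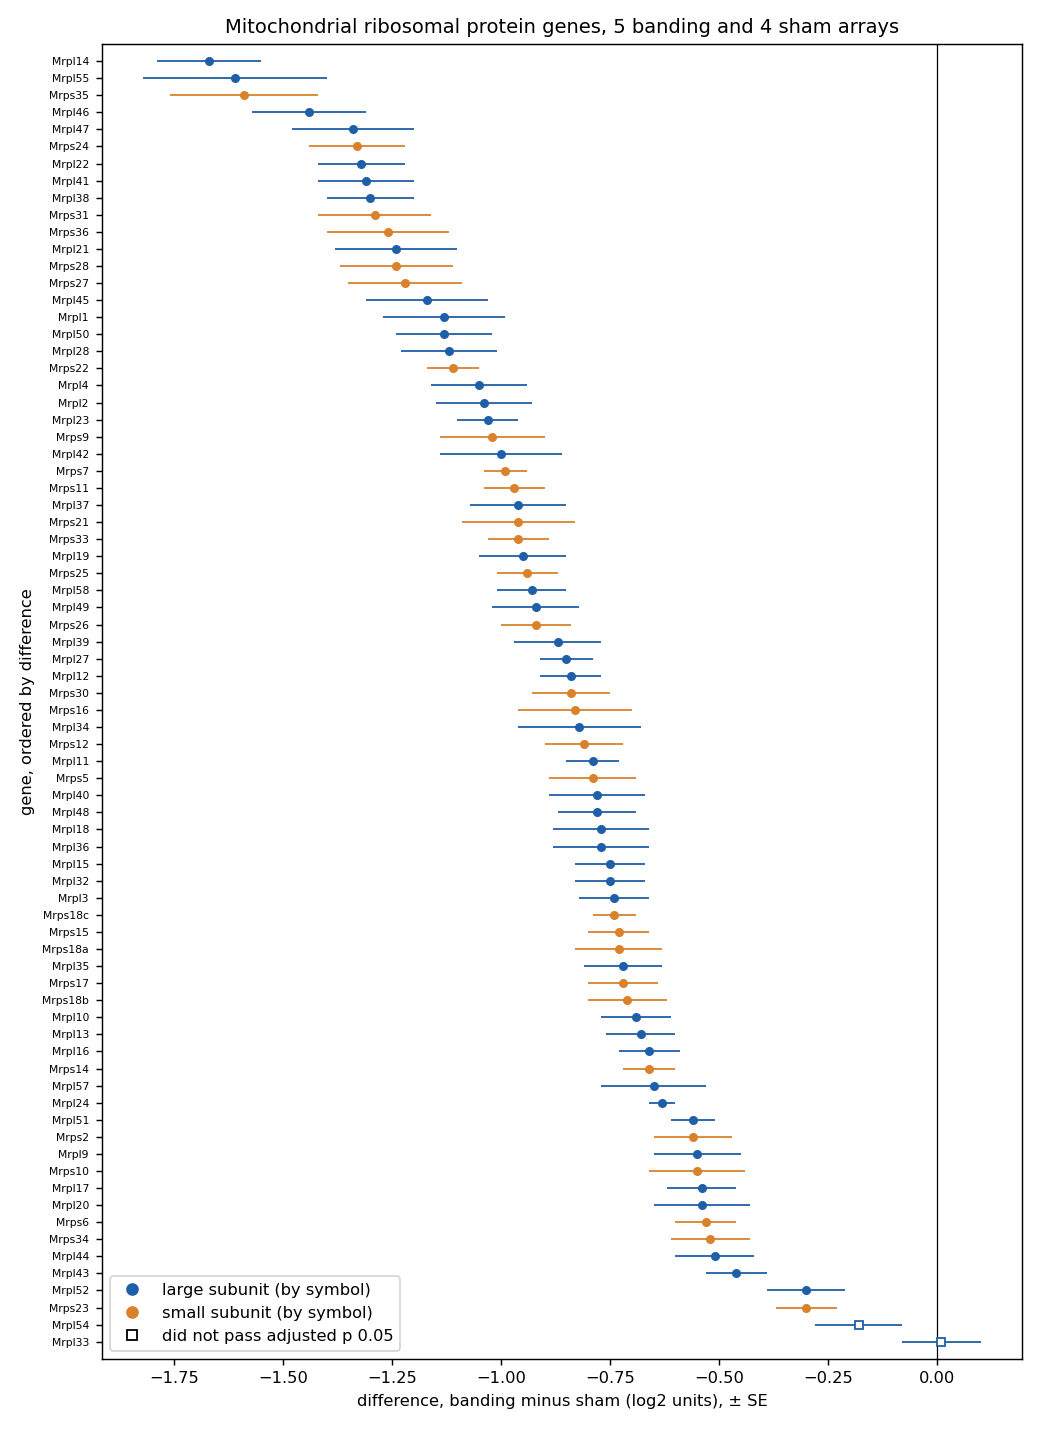
The 76 mitochondrial ribosomal protein genes are ordered by the difference between banding and sham in log2 units (x axis), with bars of 1 standard error; blue marks genes named for the large subunit, orange the small subunit, and open squares the genes that did not pass the test. All but Mrpl33 (0.01) lie left of 0, from Mrpl14 at -1.67 to Mrpl54 at -0.18, and both colours are spread along the whole order.

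Among large-subunit genes the deepest fall was in Mrpl14, which encodes a protein at the face that meets the small subunit. Its level was 8.92, 8.54, 8.57, 8.69 and 8.46 on banding replicates 1 to 5 and 10.14, 10.23, 10.56 and 10.29 on sham replicates 1 to 4. Every banding array was thus more than 1 log2 unit under every sham array, with a gap of 1.23. The fall was 1.67 ± 0.12 (SE, adjusted p = 5.86e-05), which leaves 31.4% of the sham level. Mrpl55 read 10.06, 9.55, 9.77, 9.17 and 9.21 in banding and 11.28, 11.12, 11.38 and 10.89 in sham. Here the banding arrays were more scattered (SD 0.38, n = 5, against 0.22, n = 4), with replicates 4 and 5 lowest, and the groups were still 0.82 apart at their nearest arrays. The difference was -1.61 ± 0.21 (SE, adjusted p = 0.000635).

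Mrpl46 stood at 9.50, 9.09, 9.12, 8.87 and 9.10 in banding and at 10.43, 10.53, 10.81 and 10.52 in sham, a difference of -1.44 ± 0.13 (SE). Mrpl47, the counterpart of a bacterial protein beside the exit of the peptide tunnel, was 9.25, 8.96, 9.18, 8.66 and 8.76 against 10.42, 10.34, 10.29 and 10.16 (-1.34 ± 0.14). In both genes banding replicate 4 was the lowest array. Mrpl22, whose bacterial counterpart lines the peptide tunnel, was 10.12, 9.87, 9.89, 9.69 and 9.77 in banding and 11.10, 11.13, 11.41 and 11.10 in sham (-1.32 ± 0.10). Sham replicate 3 stood apart from its 3 companions in this gene, and all 4 were above every banding array. Mrpl41 gave 11.47, 11.12, 11.23, 11.05 and 11.09 against 12.50, 12.44, 12.73 and 12.34 (-1.31 ± 0.11).

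Mrpl38 was 9.35, 9.06, 9.23, 8.95 and 8.91 in banding and 10.54, 10.41, 10.37 and 10.30 in sham, -1.30 ± 0.10 (SE). That value rests on 1 probe set of a kind that may detect related sequences, and its other probe sets were dim in both groups, with a difference of -0.01 (adjusted p = 0.559) once such probe sets were left out. Mrpl21, with 9.50, 9.02, 9.32, 9.0 and 9.04 against 10.42, 10.53, 10.56 and 10.15, fell by 1.24 ± 0.14. Its fall was 0.49 when averaged with its other probe sets, which were dim in both groups. The 8 large-subunit genes with the deepest falls therefore lost between 1.24 and 1.67 log2 units each, and banding replicate 1 was the highest banding array in all of them.

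The protein of Mrpl12 forms the stalk of the large subunit that recruits translation factors, and it also binds the mitochondrial RNA polymerase. Its transcript stood at 11.85, 11.46, 11.68, 11.63 and 11.61 in banding and at 12.46, 12.53, 12.50 and 12.46 in sham, -0.84 ± 0.07 (SE, adjusted p = 0.000118). The sham arrays lay within a narrow band (SD 0.03, n = 4). Mrpl11, which forms the base of that stalk, was 10.28, 10.05, 10.16, 10.04 and 9.97 against 10.88, 10.91, 10.94 and 10.84 (-0.79 ± 0.06). Both stalk genes were near the median of the 76.

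On the probe sets used, Mrpl3 and Mrpl44, the large-subunit genes named above for cardiomyopathy, had smaller falls than the median of the 76 genes (-0.84). Mrpl3 was 11.46, 11.20, 11.51, 11.27 and 11.26 in banding and 12.04, 12.22, 12.12 and 11.96 in sham, -0.74 ± 0.08 (SE, adjusted p = 0.000325). Mrpl44, related to double-strand RNA nucleases, was 10.83, 10.63, 10.85, 10.47 and 10.56 against 11.26, 11.26, 11.13 and 11.05, -0.51 ± 0.09 (adjusted p = 0.00339). The nearest arrays of the groups were 0.20 apart for Mrpl44 and 0.44 apart for Mrpl3. The other 3 probe sets of Mrpl44 fell by 0.91, 0.80 and 0.67. For Mrpl3, another probe set fell by 0.74, one fell by 1.56, and the dimmest gave -0.15 (adjusted p = 0.0838).

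Neither of the genes that missed the threshold was separated between groups. Mrpl54 read 9.0, 9.08, 9.15, 9.45 and 9.31 in banding and 9.39, 9.39, 9.48 and 9.24 in sham, -0.18 ± 0.10 (SE, adjusted p = 0.225). Mrpl33 read 11.67, 11.60, 11.55, 11.89 and 11.84 against 11.71, 11.74, 11.82 and 11.54, 0.01 ± 0.09 (adjusted p = 1). In both genes banding replicates 4 and 5 were the highest banding arrays, whereas replicate 1 was highest in 63 of the 76 genes. The weakest call in the large subunit was Mrpl52 (-0.30 ± 0.09, adjusted p = 0.0313), with banding between 10.75 and 11.16 and sham between 11.20 and 11.45. It missed the threshold without any 1 of banding replicates 2, 3 and 5 or sham replicates 1, 3 and 4 (largest adjusted p = 0.0813), and under quantile normalization (0.0571).

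**Figure D2:**
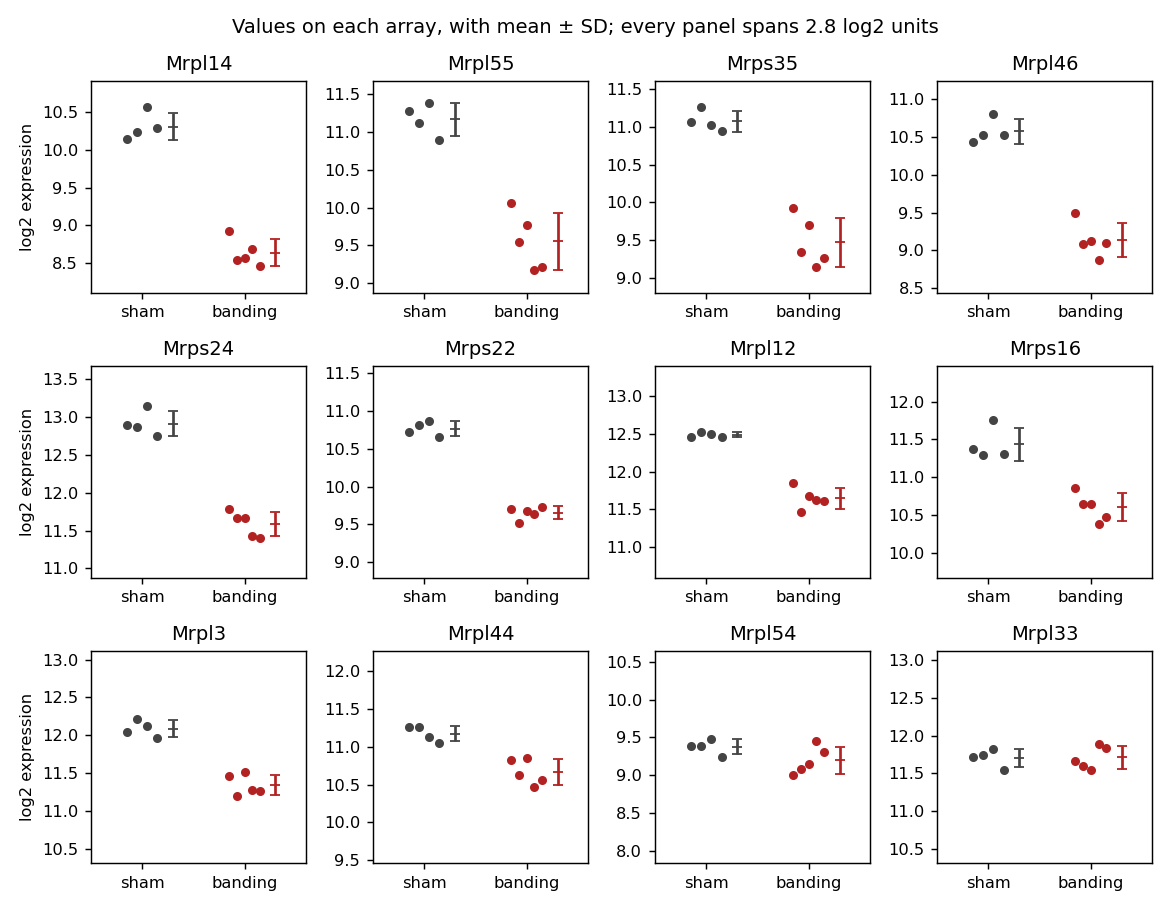
Each panel shows 1 gene, with the log2 expression of the 4 sham arrays (grey) and the 5 banding arrays (red) and the group mean ± SD beside them; every panel spans 2.8 log2 units on its own level. The groups are apart in the 10 genes from Mrpl14 to Mrpl44 and overlap in Mrpl54 and Mrpl33.

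In the small subunit all 29 genes fell, by 0.30 to 1.59 log2 units. Mrps35, a protein found in mitochondrial and not in bacterial ribosomes, led with 9.92, 9.34, 9.70, 9.15 and 9.26 in banding and 11.06, 11.26, 11.02 and 10.94 in sham. Its difference was -1.59 ± 0.17 (SE, adjusted p = 0.000281), and its nearest banding and sham arrays were 1.02 apart. Mrps24, whose bacterial counterpart sits where mRNA enters the ribosome, was 11.78, 11.66, 11.66, 11.43 and 11.40 against 12.89, 12.87, 13.15 and 12.75, -1.33 ± 0.11. Mrps31 was 9.85, 9.35, 9.53, 9.34 and 9.43 against 10.71, 11.02, 10.82 and 10.61, -1.29 ± 0.13. Averaged with its other probe set, which was dim in both groups, the fall of Mrps31 was 0.64.

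Mrps36 fell by 1.26 ± 0.14 (SE), from 11.13, 11.40, 11.57 and 11.26 in sham to 10.45, 9.87, 10.12, 9.92 and 10.03 in banding. Despite its symbol, its product is now known as a component of the alpha-ketoglutarate dehydrogenase complex of the citric acid cycle rather than of the ribosome. Mrps28 was 10.52, 10.07, 10.37, 10.10 and 9.96 in banding and 11.36, 11.63, 11.46 and 11.33 in sham, -1.24 ± 0.13. Mrps27, an RNA-binding protein with pentatricopeptide repeats, was 8.08, 7.76, 7.91, 7.47 and 7.57 against 8.88, 9.04, 9.12 and 8.89, -1.22 ± 0.13. In all of Mrps36, Mrps28 and Mrps27 banding replicate 1 was again the highest banding array, and it stayed under the lowest sham array.

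Mrps22 showed little scatter in either group. It stood at 9.71, 9.52, 9.68, 9.64 and 9.73 in banding and at 10.73, 10.82, 10.87 and 10.66 in sham, a fall of 1.11 ± 0.06 (SE, adjusted p = 2.1e-05). Mrps9 was 9.92, 9.80, 9.89, 9.62 and 9.35 against 10.79, 10.84, 10.73 and 10.60, -1.02 ± 0.12. Mrps12, of the decoding centre, was 10.15, 9.84, 9.95, 9.93 and 9.88 against 10.68, 10.64, 10.97 and 10.75, -0.81 ± 0.09. Sham replicate 3 was the highest sham array in Mrps12, Mrps22 and the next gene.

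Mrps16, another conserved small-subunit protein, was 10.86, 10.65, 10.65, 10.38 and 10.48 in banding and 11.38, 11.30, 11.76 and 11.31 in sham, -0.83 ± 0.13 (SE, adjusted p = 0.00151). Mrps6 was 10.37, 10.19, 10.09, 10.22 and 10.19 against 10.85, 10.67, 10.82 and 10.65, -0.53 ± 0.07. The smallest fall was that of Mrps23, with banding between 11.57 and 11.84 and sham between 11.85 and 12.12 (-0.30 ± 0.07, adjusted p = 0.0148), groups that were 0.01 apart.

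Mrps30 and Mrps18a carry small-subunit names but sit in the large subunit of the assembled ribosome. Mrps30 was 10.06, 9.79, 9.80, 9.65 and 9.60 in banding and 10.59, 10.70, 10.66 and 10.53 in sham, -0.84 ± 0.09 (SE). Mrps18a was 10.70, 10.27, 10.41, 10.41 and 10.43 against 11.21, 11.11, 11.34 and 11.02, -0.73 ± 0.10. Their falls were of the same order as those of both subunits.

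The subunits were lowered by nearly the same amount. The median difference was -0.82 over the 47 large-subunit genes and -0.84 over the 29 small-subunit genes. As means per array, the large-subunit genes stood at 10.47, 10.19, 10.30, 10.17 and 10.18 in banding (10.26 ± 0.13, SD, n = 5) and at 11.13, 11.13, 11.24 and 11.01 in sham (11.13 ± 0.09, SD, n = 4). The small-subunit genes stood at 10.08, 9.80, 9.90, 9.81 and 9.82 (9.88 ± 0.12) and at 10.76, 10.80, 10.87 and 10.67 (10.77 ± 0.09). These means differed between groups by -0.87 and -0.89, so the subunits' falls were 0.02 apart. Within an array the large-subunit mean exceeded the small-subunit mean by 0.35 to 0.39 in banding (0.38 ± 0.02, SD, n = 5) and by 0.34 to 0.37 in sham (0.35 ± 0.01, SD, n = 4), ranges that overlap, and this difference was not tested. In both subunits banding replicate 1 and sham replicate 3 had the highest mean of their group and sham replicate 4 the lowest mean in sham. Sham replicate 4 was the lowest sham array in 55 of the 76 genes, and sham replicate 3 the highest in 47.

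Assigned by their place in the ribosome, with Mrps30 and Mrps18a moved to the large subunit and Mrps36 left out, 47 of 49 large-subunit genes fell (median -0.82) and 26 of 26 small-subunit genes (median -0.88). Of the 45 proteins with a bacterial counterpart 44 fell, with a median of -0.79, and of the 30 found only in mitochondrial ribosomes 29 fell, with a median of -0.92. Within the large subunit these medians were -0.79 (29 genes) and -0.85 (20 genes), and within the small subunit -0.80 (16 genes) and -0.95 (10 genes). Single genes ran from -1.67 to 0.01 among those with a bacterial counterpart and from -1.59 to -0.18 among those found only in mitochondrial ribosomes. The difference of class medians was not tested.

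**Figure D3:**
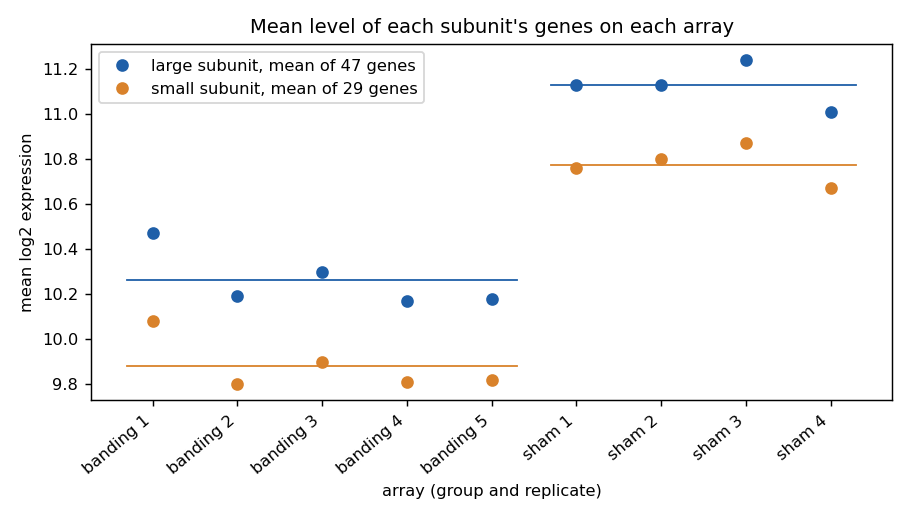
Mean log2 expression of the 47 large-subunit (blue) and 29 small-subunit genes (orange) on each of the 9 arrays, with a line at each group mean. The 5 banding arrays lie between 10.17 and 10.47 for the large and between 9.80 and 10.08 for the small subunit, under all sham arrays (11.01 to 11.24 and 10.67 to 10.87).

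The 76 genes had 156 probe sets, and 34 genes had only 1. Tested singly, 112 were lower and 0 higher (0 also at an unadjusted p of 0.05), where 16.1% of all single probe sets were lower and 15.3% higher. Of the 44 that did not pass, 31 were dim in both groups. Among the 48 probe sets above the dim level that did not represent their gene, 37 were lower, so most second measurements of a gene moved as the first. Mrpl13 is an exception, since the probe set used fell by 0.68 ± 0.08 (SE), while another with a mean of 11.55 in banding gave -0.10 (adjusted p = 0.517) and one with a mean of 10.08 there gave -0.06 (adjusted p = 0.122). For Mrps9 a second probe set fell by 1.42 and another gave -0.23 (adjusted p = 0.157), and for Mrpl28 the values were -1.12, -0.70 and -0.28 (adjusted p = 0.129 for the last). A second probe set of Mrpl47 fell by 2.25 ± 0.28, more than the one used. Of the genes measured only together with another, the brighter Mrpl30 probe set lay between 12.59 and 13.08 in banding and between 13.45 and 13.81 in sham, and that of Mrpl53 between 11.10 and 11.39 and between 11.68 and 12.18, again without overlap.

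**Figure D4:**
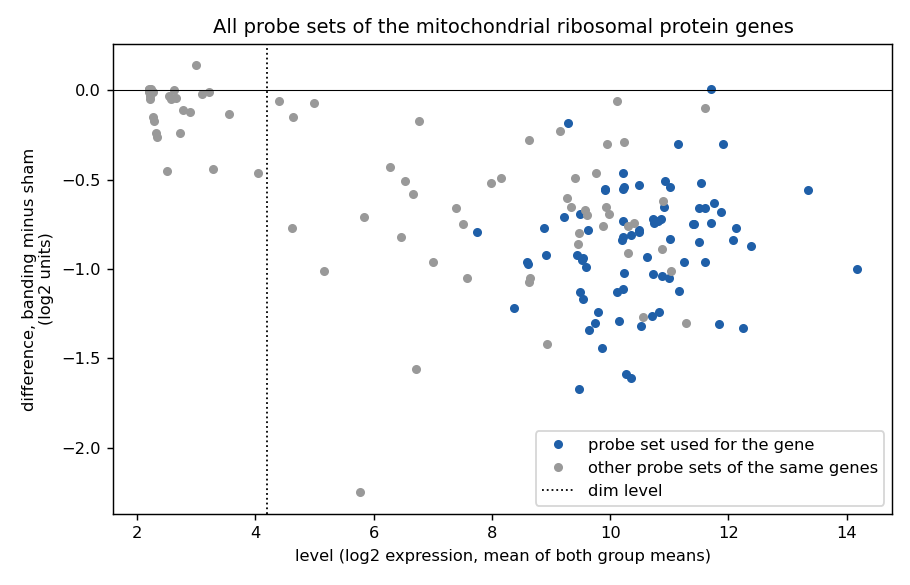
Each point is 1 of the 156 probe sets of the 76 genes, with its level (mean of both group means, log2 expression) on the x axis and its difference between banding and sham (log2 units) on the y axis; blue points represent their gene, grey points are other probe sets, and the dotted line is the dim level of 4.198. Probe sets left of the line lie between -0.46 and 0.14, and right of it most points lie between -0.5 and -1.7.

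Further proteins of the mitoribosome that carry other names fell as well, 4 of the 4 measured. Ptcd3, a small-subunit RNA-binding protein, went from 11.77 ± 0.10 (SD, n = 4) to 10.33 ± 0.22 (SD, n = 5), -1.44 ± 0.12 (SE, adjusted p = 9.58e-05). Gadd45gip1, of the large subunit near the tunnel exit, fell by 1.32 and Chchd1, of the small subunit, by 0.83. Dap3, a GTP-binding small-subunit protein, fell by 0.31 ± 0.08 (adjusted p = 0.0169).

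Genes that build and serve the mitoribosome were lower in about equal measure. Of 21 assembly factors 19 fell and 0 rose, with a median of -0.92, among them the RNA-binding protein Fastkd2 (-1.02), the rRNA methyltransferase Nsun4 (-1.03), Malsu1, which binds the protein of Mrpl14 on the nascent large subunit (-1.10), and the helicase Dhx30 (-0.43). Ddx28 (-0.28, adjusted p = 0.0564) and Mpv17l2 (0.04, adjusted p = 0.78) did not pass, although Ddx28 was lower with arrays centred on their medians (adjusted p = 0.0174), among genes above the dim level alone (0.0308) and without sham replicate 4 (0.0487). All 13 translation factors and mRNA-binding partners measured fell, with a median of -0.88. They include the elongation factors Tufm (-1.11 ± 0.15) and Gfm1 (-0.88 ± 0.07), the recycling factor Gfm2 (-0.77), the mRNA-stabilising pair Lrpprc (-1.16) and Slirp (-0.83), and Oxa1l, which inserts new chains into the inner membrane (-0.90).

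Among mitochondrial aminoacyl-tRNA synthetases and the amidotransferase subunits, which charge the tRNAs, 17 of 19 fell, with a median of -0.86. Yars2 (-1.21), Tars2 (-0.73), Nars2 (-1.0) and Cars2 (-1.38) had the smallest p-values. Lars2 was higher by 0.55 ± 0.08 on its brightest probe set, but when its probe sets were averaged the difference was 0.05 (adjusted p = 0.81). Of 10 genes of mitochondrial DNA transcription and maintenance 9 fell (median -0.68). The RNA polymerase Polrmt fell by 0.94 ± 0.10, the elongation factor Tefm by 1.14 and the polymerase subunit Polg2 by 0.79. The factors Tfb2m and Tfam, both needed to start transcription of mitochondrial DNA, fell by 0.55 and by 0.53 ± 0.10.

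Regulators known to act on these genes moved in different directions, 3 lower, 3 higher and 3 not passing. The coactivator Ppargc1a, which drives mitochondrial biogenesis, was at 9.48 ± 0.56 in banding (SD, n = 5) and at 10.74 ± 0.23 in sham (SD, n = 4), -1.25 ± 0.29 (SE, adjusted p = 0.0108). Its banding arrays ran from 8.88 on replicate 5 to 10.35 on replicate 1, the array on which most ribosomal protein genes were also highest within banding. Within banding that array also had the highest mean of the cardiomyocyte markers (15.02, against 14.76 to 14.94) and the lowest of the macrophage markers (10.52, against 10.64 to 11.12), and the part of either in these levels was not tested. The receptor Esrra fell by 1.06 ± 0.12 and the coactivator Ppargc1b by 0.70. Yy1 (0.71 ± 0.16), Pprc1 (0.50) and Myc (1.11) rose. Nrf1 was low in both groups, at 5.48 ± 0.39 in sham and 5.22 ± 0.26 in banding (-0.26 ± 0.21, adjusted p = 0.428). Gabpa (-0.07, adjusted p = 0.463) did not pass, although it fell by 0.39 when its probe sets were averaged (adjusted p = 0.000972) and by 0.20 with arrays centred on their medians (adjusted p = 0.0106), and Gabpb1 did not pass (0.13, adjusted p = 0.48).

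Nuclear-encoded transcripts of complexes I, III, IV and V, which hold subunits made by the mitoribosome, had smaller median falls than the 76 genes. Complex II, which holds none, was close to the 76 genes, and without sham replicate 3 its median was -0.83 against their -0.80. Transcripts of all these complexes were also brighter, with median sham levels from 13.74 (complex II) to 14.6 (complex V) against 11.07 for the 76 genes. The part of signal level in the smaller falls was not tested. Of 35 genes taken for complex I by symbol alone, 32 were lower and 1 higher (Ndufa4l2), with a median of -0.65 and Ndufb4 dim in both groups. Complex II had 4 of 4 lower (-0.79) and complex III 9 of 9 (-0.44). Complex IV had 8 of 17 lower (-0.26), with Cox4i2, Cox7b2 and Cox8c dim in both groups, and complex V 16 of 17 (-0.47). The complex IV call with the smallest p, Cox7c (-0.74), was on a probe set at 7.36 in sham. It was lost with its probe sets averaged (-0.25, adjusted p = 0.26) and without probe sets named _x_at or _s_at (0.24, adjusted p = 0.534). Under the alternatives, 6 to 9 genes were lower in complex III, 6 to 11 in complex IV and 11 to 17 in complex V. The 1 mitochondrially encoded transcript on the list, ND5, was 15.53 ± 0.10 in sham and 15.30 ± 0.08 in banding (-0.23 ± 0.06, adjusted p = 0.0172), a call that ended without any 1 of sham replicates 1, 2 and 3 (adjusted p = 0.0511, 0.0506 and 0.0503) and under quantile normalization (0.057).

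The cytosolic ribosomal protein genes listed, which belong to the other ribosome of the cell, did not share the fall. The list left out genes named Rps with a number alone. Nearly all of it was therefore of the large subunit, and most cytosolic small-subunit genes were not examined. The large subunit was not fully covered either, since genes such as Rpl3 were absent, and related forms such as Rpl3l were counted. Sham levels of the listed genes ran from 4.28 to 14.75 with a median of 13.17, so some gave little signal. Of the 28 listed 15 were higher and 2 lower, with a median difference of 0.21. Rpl7 (0.41), Rpl13a (0.36), Rpl37 (0.61) and Rps4x (0.33) were higher. With every array centred on its own median, which moved the median of all genes to -0.13, 5 were higher and 3 lower, with a median of 0.08, while 74 of the 76 mitochondrial genes were lower under that centring too. Rpl3l, a form of Rpl3 confined to striated muscle, went the other way by -3.63 ± 0.54, and Rps27l fell by 0.24 (a difference of -0.04, adjusted p = 0.182, without probe sets that may detect related sequences).

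**Figure D5:**
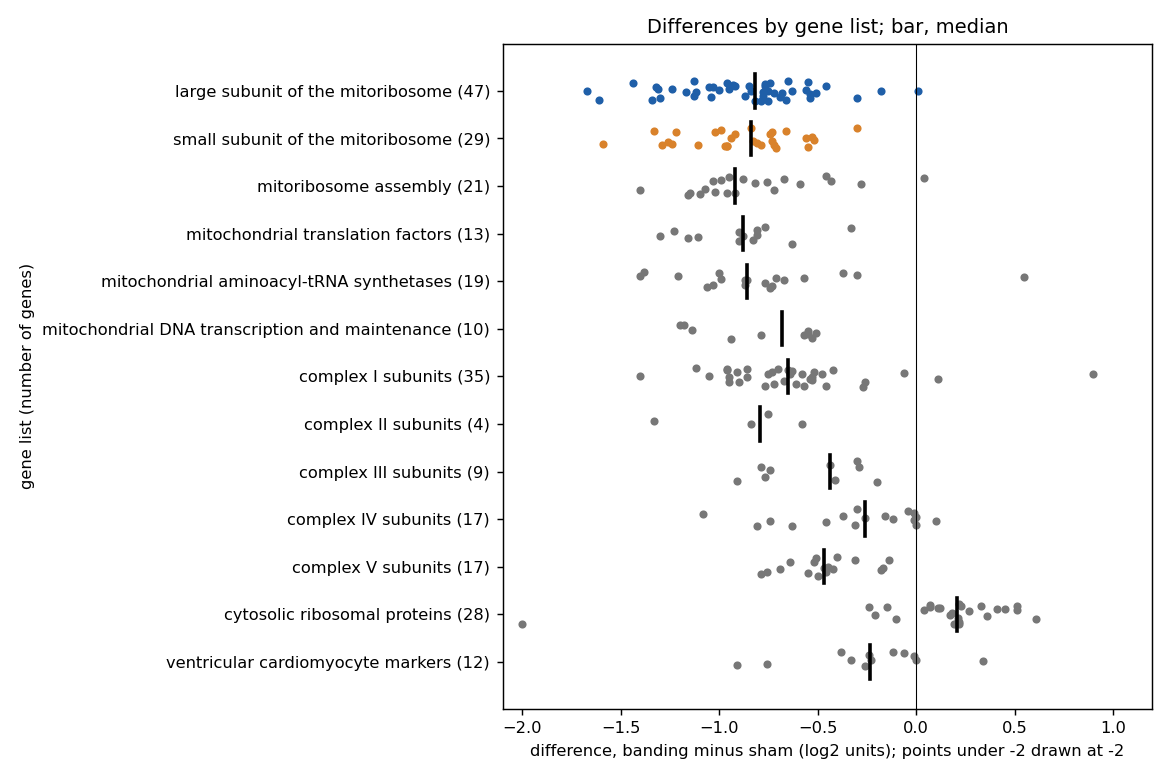
Each point is a gene, placed by its difference between banding and sham in log2 units (x axis), in 13 gene lists with their number of genes; black bars are medians, and 1 point under -2 (Rpl3l) is drawn at -2. Medians of the mitoribosome, assembly, translation factor and synthetase lists lie between -0.92 and -0.82, and those of complexes III to V between -0.47 and -0.26. The median of the cytosolic ribosomal proteins listed, nearly all of the large subunit, is 0.21.

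Other transcripts of the tissue moved with the groups. Of 12 ventricular cardiomyocyte markers 6 were lower and 1 higher (Mybpc3), with a median of -0.23, and their summed linear level was 394000 to 461000 in banding and 482000 to 502000 in sham. With single sham arrays left out 4 or 5 of these markers were lower, without banding replicate 1 there were 8, and with arrays centred on their medians there were 9 lower and 0 higher. With the replicate number as a block 1 was lower and 0 were higher. Myh6 (-0.12), Tnnt2 (0.00) and Ttn (-0.01) did not pass and were bright in both groups. Myh6 was lower with arrays centred (-0.25, adjusted p = 0.00753) and without banding replicate 1 (-0.15, adjusted p = 0.0297), and Tnnt2 (-0.46, adjusted p = 2.12e-05) and Ttn (-0.41, adjusted p = 0.00534) were lower when their probe sets were averaged. Fibroblast markers were higher in 9 of 10 genes (159000 to 190000 against 34800 to 39400), macrophage markers in 9 of 10 (26800 to 40300 against 13400 to 16100), endothelial markers in 6 of 10 (7980 to 10500 against 6750 to 8020) and smooth muscle and pericyte markers in 6 of 8 (24800 to 32900 against 16700 to 18800). The part of these shifts in the fall of the mitochondrial genes was not tested, and in bulk tissue fewer cells of a type and less RNA per cell cannot be told apart.

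Liver transcripts were also present, mainly in sham, with 10 of 10 liver markers lower in banding and summed levels of 69.7 to 747 against 9710 to 127000. Their mean log2 level was 10.71, 10.18, 9.29 and 13.27 on sham replicates 1 to 4 and between 2.69 and 4.97 on the banding arrays. Sham replicate 4, with the highest liver level, was the array on which the mitochondrial ribosomal protein genes were lowest within sham. Without it 73 of the 76 genes were lower and the median difference was -0.88. The remaining sham arrays still held more liver signal than any banding array. The part of liver RNA in the differences cannot be told apart from that of banding, and it was not tested.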

How the data were processed

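Values were the deposited log2 expression per probe set on one-colour Affymetrix mouse arrays. RMA and GCRMA are named in the submitters' processing notes, without version or order. The number of arrays, 5 banding and 4 sham with medians from 3.23 to 3.31, limits the precision. Of 45101 probe sets, 64 controls, 9160 naming no gene and 932 naming several were left out, and 34945 remained. The dim level was set 2 log2 units above the floor of 2.198.

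The groups were compared with limma 3.58.1 (R 4.3.3, lmFit and eBayes, two-sided, no covariate) over 18193 genes, with an adjusted p threshold of 0.05 and no minimum fold, after being tested on simulated data. Python 3.11.15, pandas 2.3.3 and matplotlib 3.10.9 were used otherwise. Values on every array are given for the 8 deepest falls per subunit, for 11 fixed members and for members that did not pass. Any member may be named, and of each related list up to 4 genes with the smallest p and 7 fixed genes. Myc, Gabpa, Gabpb1, Ddx28, Mpv17l2, Lars2, Ndufa4l2, Ndufb4, Cox4i2, Cox7b2, Cox8c, Rpl3l, Rps27l, Myh6, Tnnt2 and Ttn were named after their values were seen. Members and lists were chosen with earlier results of these data known. Alternatives covered probe set choice, dim genes, normalization, centring, floor, variance model, replicate block and single arrays left out.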

Additional observations from a re-analysis of the deposited data

Results flagged for a closer look

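Among the genes given array by array, 1 array stood far from the rest of its group in 2 genes. In Mrpl22, sham replicate 3 was at 11.41, while the remaining sham arrays were between 11.10 and 11.13. In Mrps16, sham replicate 3 was at 11.76, while the others were between 11.30 and 11.38. Both are the same array, which was the highest sham array in 47 of the 76 genes. There were 60 such checks, of which chance alone marks about 1 in 20. Without that array 73 of the 76 genes were lower, with a median difference of -0.80.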

How the results depend on the processing

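Of the 76 genes, 70 to 74 were lower and 0 higher under every alternative, and no call reversed. With the mean of all probe sets the median difference was -0.71 over the 76 genes and -0.72 in the small subunit. Centring every array on its median gave -0.96 over the 76 genes, -0.95 in the large and -0.96 in the small subunit. It also moved the median of all 18193 genes to -0.13, so that relative to that value the median of the 76 stayed at -0.84. The median of the large minus that of the small subunit was 0.02, became 0.06 under quantile normalization and 0.06 with genes assigned by structure, and ran from 0.01 to 0.05 with single arrays left out. Leaving out 1 array gave 73 or 74 lower genes and medians from -0.90 to -0.80. Without probe sets named _x_at or _s_at, Mrpl37, Mrps12 and Mrps24 had no value, and 70 of 73 genes were lower. With the replicate number as a block, 70 genes were lower, with a median of -0.80, and Mrpl20 (adjusted p = 0.0755), Mrpl52 (0.132), Mrpl9 (0.0535) and Mrps23 (0.103) missed the threshold, as did Dap3 (0.0947), Myc (0.097), Rps27l (0.0983) and Mybpc3 (0.0518) among the other genes named. Of the 12 cardiomyocyte markers, 1 was lower under the block, against 6 without it. The block called 5277 of all genes against 6989 without it. Deviations of same-numbered arrays correlated at 0.036, 0.004, -0.034 and -0.017, within the range of differently numbered arrays (-0.137 to 0.16). They showed no pairing by number, and whether same-numbered arrays shared a day or batch cannot be judged from them. The causes of these shifts were not tested. Signal was above the dim level in all 76 genes.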
